A study of Mus musculus with 30 samples.

Results

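Transcripts of 9 genes that break down haem and that take up, store, move and export iron were followed through 6 cell populations sorted from mouse mammary tumours. The genes were taken by name, and all 9 were found among the 14118 genes of the deposited count matrix: Hmox1, Blvra and Blvrb of haem breakdown, the ferritin subunits Fth1 and Ftl1, the uptake receptor Tfrc, the vesicle transporters Slc11a1 and Slc11a2, and the exporter Slc40a1. The 30 RNA-seq libraries come from 5 tumours, each from a separate FVB/N-Tg(MMTVPyVT)634Mul/J mouse. In this strain the MMTV promoter drives the polyoma virus middle T antigen, an oncogene, in the mammary epithelium, and every tumour had grown to a volume of 750 mm3. There is no tumour-free tissue, so each comparison is between cell populations of the same tumours, and the sources used here give no age for the animals.

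The tumour-associated macrophages (TAMs) were CD45+ F4/80+ cells in 3 gates: CD206+ with low MHCII, called CD206hi here, CD206+ with high MHCII, called CD206pos, and CD206- with low MHCII, called CD206neg. Endothelial cells were CD45- CD31+. The cancer-associated fibroblasts (CAFs) were CD45- CD31- CD90+ and were parted into CAF1 (CD34-) and CAF2 (CD34+). Each population has 5 libraries, from tumours 5, 6, 8, 10 and 11, and values by library are given in that tumour order. Each library is a bulk pool of sorted cells, so fewer cells of a type and less RNA per cell cannot be told apart.

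Haem oxygenase 1, the product of Hmox1, opens the haem ring and releases iron, carbon monoxide and biliverdin, which the biliverdin reductases reduce to bilirubin. Freed iron is held in ferritin, a shell of heavy (Fth1) and light (Ftl1) subunits, or leaves the cell through ferroportin (Slc40a1). Transferrin-bound iron enters by way of the transferrin receptor (Tfrc), and the metal transporters DMT1 (Slc11a2) and NRAMP1 (Slc11a1) carry iron out of endosomes and phagosomes. Macrophages that engulf old red cells are the main recyclers of haem iron in the body. Iron regulatory proteins bind a hairpin, the iron-responsive element, in the mRNAs of several of these genes when iron is scarce: in a 5′ UTR this blocks translation, and in the 3′ UTR of Tfrc it protects the mRNA from decay. Transcript counts do not show the control of translation.

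The hairpin matches found in 4 of the 9 genes are shown because such hairpins set which of these mRNAs are regulated in their amount and which in their translation. The hairpins were found in the transcripts of GENCODE vM21 (GRCm38) as C, then 5 bases, then the loop CAGUGN with a last base other than G, then 5 bases that pair with the first 5, G-U pairs allowed, on the mRNA strand only. Capitals mark the unpaired C and the 6-base loop. The search took 1 coding transcript per gene, the principal isoform where marked. Fth1, Ftl1 and Slc40a1 held 1 match each in the 5′ UTR and Tfrc held 4 in its 3′ UTR, in the order given. These letters were present in the 5′ UTR of 0.0932% of 20397 genes and in the 3′ UTR of 0.389% of 20562 genes. Not all transcripts of these genes held a match. Over all complete coding transcripts, 5′ UTRs with a match were 4 of 5 for Fth1, 1 of 2 for Ftl1 and 1 of 4 for Slc40a1. For Tfrc 1 of 2 3′ UTRs held a match. No match was present in the UTRs of the other 5 members. Slc11a2 is known to carry a variant hairpin with an added bulge in the 3′ UTR of some isoforms, which this pattern does not cover.
Fth1, 5′ UTR, starting at base 93 of 224: uuccugCuucaaCAGUGCuugaacggaac
Ftl1, 5′ UTR, starting at base 84 of 253: gucuugCuucaaCAGUGUuugaacggaac
Slc40a1, 5′ UTR, starting at base 96 of 319: caacuuCagcuaCAGUGUuagcuaaguuu
Tfrc, 3′ UTR, starting at base 889 of 2458: aauuauCggaagCAGUGCcuuccauaauu
Tfrc, 3′ UTR, starting at base 1268 of 2458: cauuauCgggagCAGUGUcuuccauaaug
Tfrc, 3′ UTR, starting at base 1333 of 2458: cuauauCggagaCAGUGAucuccauaugu
Tfrc, 3′ UTR, starting at base 1380 of 2458: aauuauCgggaaCAGUGUuucccauaauu

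Total counts ran between 6292411 and 11957076 per library, so that the 3 counts that an absent gene could still hold correspond to 0.251 to 0.477 CPM, a gene's counts divided by its library total and scaled to a common size. These floors cover counting error only. The sort genes followed the gates: Adgre1 (F4/80) averaged 492 to 645 CPM in the 3 TAM populations and under 1 CPM elsewhere, Pecam1 (CD31) 927 CPM in endothelial cells, and Cd34 53.8 CPM in CAF1, against 1603 CPM in CAF2. Mrc1 (CD206) averaged 990 CPM in CD206hi (727 to 1439), 1206 CPM in CD206pos (604 to 2064) and 67.8 CPM in CD206neg (23.3 to 98.9). Its transcript thus did not rank CD206hi above CD206pos. One label and its data disagree. The CD206neg libraries of tumours 6 and 8 are labelled low for MHCII, while their columns are named for high MHCII, and they held 7874 and 2778 CPM of the MHCII gene H2-Aa, against 20.2 to 391 CPM in the other 3 CD206neg libraries. The labels were followed, and the members called against CD206neg are given with and without these 2 libraries.

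All 9 genes were higher in TAMs than in CAFs, where 68.1% of the 13610 genes tested were called, 30.8% higher and 37.3% lower. Against endothelial cells 8 of the 9 were higher, with 61.3% of all genes called and 24.7% higher, and Tfrc did not pass the test. Between endothelial cells and CAFs 4 of 9 were called (45.2% of all genes), 1 higher (23% of all genes) and 3 lower (22.1%). Between CAF1 and CAF2 19.5% of genes were called, and CAF1 had 2 of 9 higher (10.9% of 12149 genes) and 1 lower (8.59%). Within the TAMs, CD206hi against CD206neg had 3 of 9 higher (6.14% of 11052 genes) and none lower (3.9%). CD206pos against CD206neg had 3 higher (8.85%) and 1 lower (5.85%). No member was called between CD206hi and CD206pos, where 0.19% of genes were called, 0.00905% higher and 0.181% lower. These calls are from edgeR's quasi-likelihood test at a p of 0.05 after Benjamini-Hochberg adjustment across the table. Counts of tumours below compare TMM-scaled log2 means within each tumour, so a close pair can fall the other way in CPM. The median log2 fold change of the 9 was 1.99 between TAMs and CAFs and 2.96 between TAMs and endothelial cells, and that of all genes tested was -0.10 and -0.17.

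**Figure D1:**
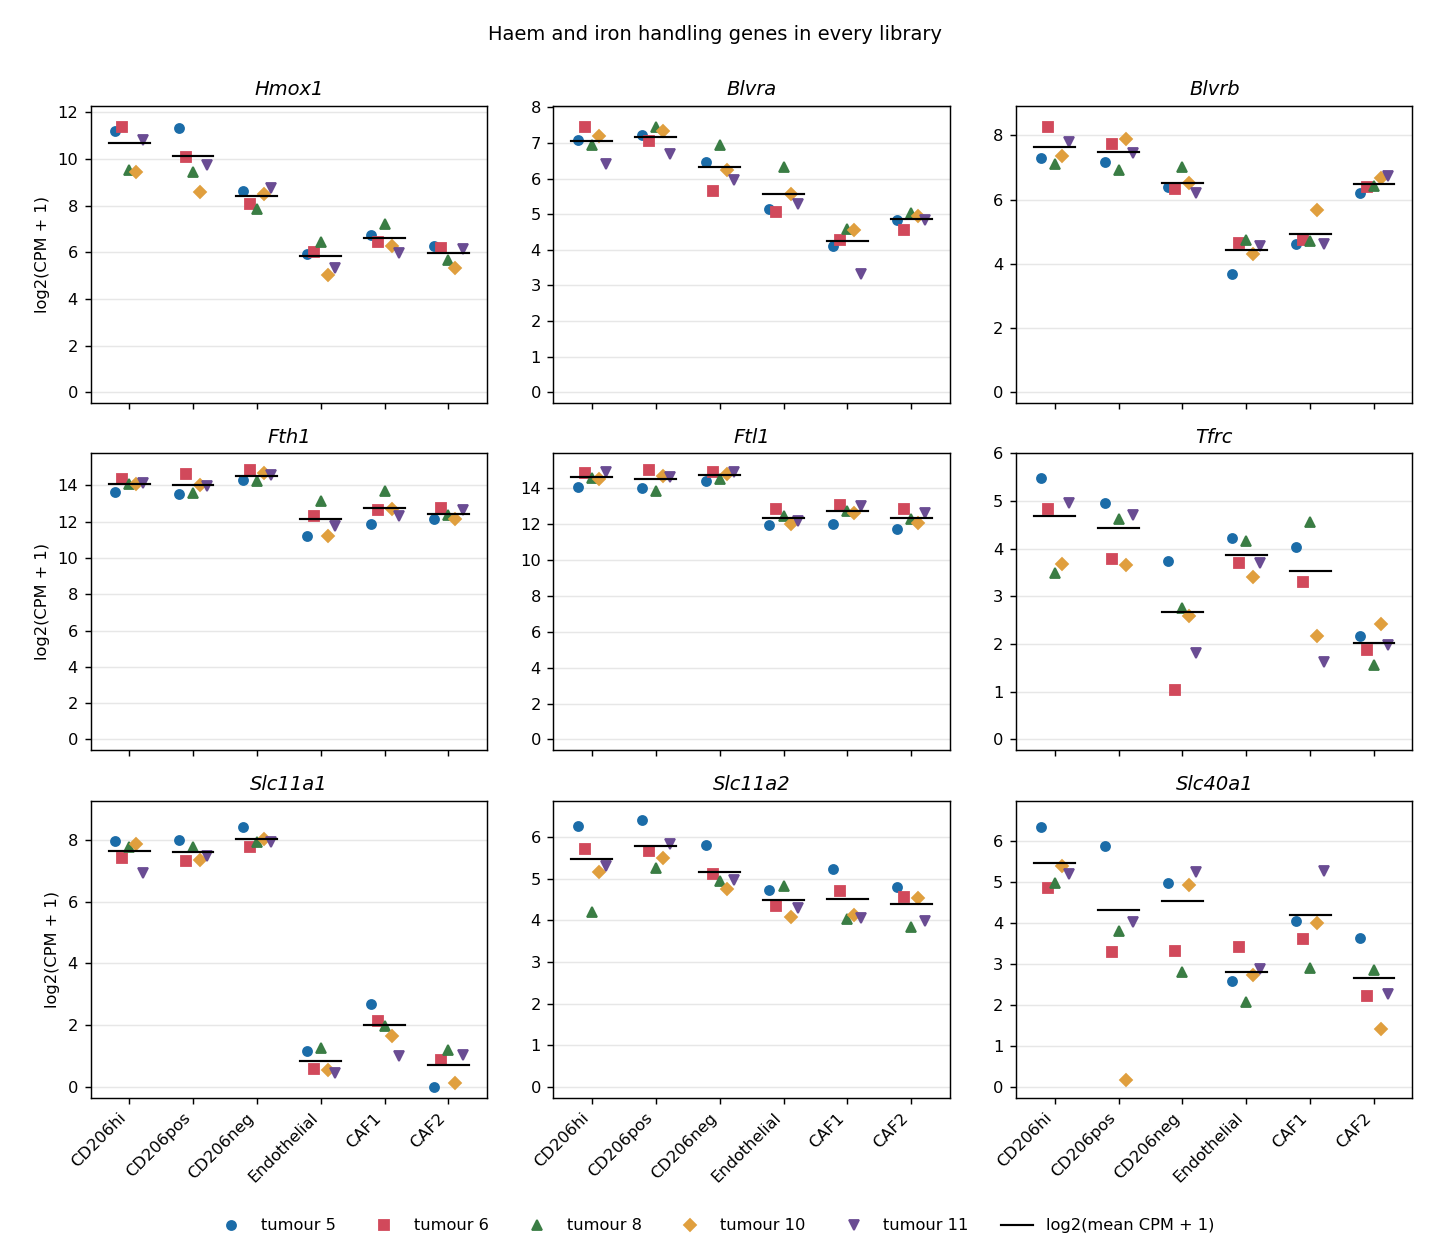
Each panel shows 1 gene, with log2(CPM + 1) on the vertical axis and the 6 populations along the horizontal axis, each symbol being the library of 1 of the 5 tumours and each bar the log2 of the population's mean CPM plus 1. Hmox1 and Slc11a1 of all 15 TAM libraries lie above all 15 endothelial and CAF libraries, while Tfrc and Slc40a1 overlap between the lineages.

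Hmox1, the inducible haem oxygenase, lies on mm10 at chr8:75093618-75100593 (plus strand). It had 2371, 2651, 739, 698 and 1800.0 CPM in CD206hi libraries, 2585, 1082, 704, 379 and 866 CPM in CD206pos libraries, and 395, 272, 231, 359.5 and 426 CPM in CD206neg libraries. It had 59.4, 64.0, 85.3, 31.98 and 38.8 CPM in endothelial libraries, 105, 87.1, 147, 77.1 and 61.9 CPM in CAF1 libraries, and 75.0, 72.4, 49.3, 38.8 and 70.1 CPM in CAF2 libraries. The lowest TAM library, CD206neg of tumour 8, was above the highest of the others, CAF1 of tumour 8. The order of the means was CD206hi, CD206pos, CD206neg, CAF1, CAF2 and endothelial, in which CD206hi and CD206pos, and CAF2 and endothelial cells, differed by less than their SD. Over the TAM libraries the mean was 1037 ± 871 CPM (SD, n = 15), against 55.9 ± 21.3 CPM in endothelial cells (n = 5) and 78.3 ± 30.3 CPM in CAFs (n = 10). The log2 fold change of TAMs was 4.73 ± 0.46 (SE) against endothelial cells (edgeR adjusted p = 3.86e-10) and 3.84 ± 0.32 against CAFs (edgeR adjusted p = 7.58e-12).

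Within the TAMs, Hmox1 was higher in both CD206+ populations than in CD206neg. No CD206hi library overlapped the CD206neg libraries, and the log2 fold change was 2.10 ± 0.50 (edgeR adjusted p = 0.00984, higher in 5 of 5 tumours). In CD206pos the log2 fold change was 1.49 ± 0.49 (edgeR adjusted p = 0.0466, higher in 4 of 5 tumours), and the library of tumour 10, with 379 CPM, lay within the CD206neg range. Without the CD206neg libraries of tumours 6 and 8 the log2 fold changes were 1.89 and 1.29, and neither passed the test (edgeR adjusted p = 0.0912 and 0.191). The call for CD206hi was also lost without tumour 6 (edgeR adjusted p = 0.0682). That for CD206pos was lost without any 1 of 8 libraries (CD206hi of tumour 5, CD206neg of tumours 5, 6, 8 and 10, CD206pos of tumours 5, 6 and 11), with adjusted p up to 0.143 in edgeR, and without tumours 5, 6, 8 or 11, up to 0.247.

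Other measures also differed between the TAM populations. In CD206hi, tumour 6 had the highest Hmox1, the lowest sum of the digestion genes and the highest sum of the erythroid markers. Its epithelial markers were also the highest of that population, at 329 CPM. In CD206pos Hmox1 was highest in tumour 5, at 2585 CPM, against 1082 CPM in tumour 6. In CD206neg Hmox1 was highest in tumour 11, at 426 CPM, against 272 CPM in tumour 6. The summed level of 10 immediate early and heat shock genes that mark the response to tissue digestion, all 10 in the matrix, was 10613 to 31783 CPM in CD206hi, 7820 to 23563 CPM in CD206pos and 7834 to 11884 CPM in CD206neg. Dendritic cell markers, 3 of 4 in the matrix, summed to 4.95 to 261 CPM in CD206hi, 27.8 to 226 CPM in CD206pos and 2.43 to 5.96 CPM in CD206neg. Erythroid markers, 3 of 9 in the matrix, summed to 0.222 to 122 CPM in CD206hi, 0.347 to 109 CPM in CD206pos and 0.205 to 35.8 CPM in CD206neg, with tumour 6 highest in each. Their part in the differences within the TAMs was not tested, here and for Blvra, Blvrb, Tfrc and Slc11a1 below.

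Blvra (chr2:127070629-127097084, plus strand), which encodes biliverdin reductase A, was highest in the CD206+ populations, at 132 ± 32.3 CPM in CD206hi and 144 ± 27.6 CPM in CD206pos, followed by CD206neg at 79.2 ± 28.3, endothelial cells at 46.3 ± 19.4, CAF2 at 27.9 ± 3.63 and CAF1 at 17.8 ± 5.64 CPM (SD, n = 5 each). The first 2 differed by less than their SD. Endothelial cells and CAF2 differed by less than the endothelial SD only, and their libraries did not overlap. The log2 fold change of TAMs was 2.07 ± 0.18 against endothelial cells (edgeR adjusted p = 1.92e-11) and 2.66 ± 0.14 against CAFs (edgeR adjusted p = 1.04e-16). It was the 1 member higher in endothelial cells than in CAFs, at a log2 fold change of 0.59 ± 0.16 (edgeR adjusted p = 0.00369). The endothelial libraries had 34.4, 32.5, 79.7, 46.5 and 38.3 CPM, and the lowest of them stood just above the highest CAF library, CAF2 of tumour 8 at 31.9 CPM. Without the endothelial library of tumour 8 the log2 fold change was 0.37 and the call was lost (edgeR adjusted p = 0.0627). That library held the highest endothelial Blvra and Fth1 and stood apart in its markers: endothelial markers summed to 1699 CPM, against 3653 to 4416 CPM in the other 4, pericyte markers to 1719.8 CPM, against 104 to 795 CPM, and fibroblast markers to 646 CPM, against 50.5 to 468 CPM. The part of these cells in the values was not tested.

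Among the TAMs, Blvra was higher in CD206hi (log2 fold change 0.60 ± 0.18, edgeR adjusted p = 0.0407) and in CD206pos (0.70 ± 0.18, edgeR adjusted p = 0.0144) than in CD206neg, in 5 of 5 tumours each. The CD206neg library of tumour 8, at 123 CPM, overlapped both, and the CD206hi library of tumour 11, at 84.9 CPM, was below the CD206neg library of tumour 5, at 87.8 CPM. Without CD206neg of tumours 6 and 8 the log2 fold change was 0.69 in CD206hi (edgeR adjusted p = 0.0772) and 0.78 in CD206pos (edgeR adjusted p = 0.0327). The CD206hi call was also lost without any 1 of 10 libraries (CD206hi of tumours 6, 8, 10 and 11, CD206neg of tumours 5, 6, 10 and 11, CD206pos of tumours 8 and 11), with adjusted p up to 0.117 in edgeR, and without tumours 5, 6, 10 or 11, up to 0.195. The CD206pos call was lost without tumours 6, 10 or 11 (edgeR adjusted p = 0.0581 to 0.0857).

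Blvrb (chr7:27447978-27465981, plus strand) encodes the other reductase, which reduces flavins and biliverdin isomers that Blvra does not favour, and its pattern parted from that of Blvra outside the macrophages. It had 11.96, 24.3, 25.9, 18.8 and 22.8 CPM in endothelial libraries, 23.5, 26.0, 25.0, 50.5 and 23.5 CPM in CAF1 libraries, and 72.1, 82.2, 84.3, 101 and 107 CPM in CAF2 libraries. No CAF1 library reached the lowest CAF2 library. CAF1 was lower than CAF2 by a log2 fold change of -1.46 ± 0.27 (edgeR adjusted p = 0.00223, lower in 5 of 5 tumours). Endothelial cells were lower than CAFs, with a log2 fold change of -1.77 ± 0.30 (edgeR adjusted p = 1.71e-05). CD206hi had 197 ± 68.9 CPM, CD206pos 177 ± 48.3 CPM and CD206neg 91.1 ± 22.0 CPM, the last within its SD of CAF2 at 89.2 ± 14.1 CPM (n = 5 each). TAMs as a whole were higher than endothelial cells (log2 fold change 3.63 ± 0.33, edgeR adjusted p = 7.08e-11) and than CAFs (1.86 ± 0.22, edgeR adjusted p = 9.90e-09).

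The CD206hi libraries had 156, 307, 137, 165 and 222 CPM of Blvrb and the CD206neg libraries 83.8, 79.2, 129, 90.3 and 73.4 CPM, without overlap. The log2 fold change of CD206hi against CD206neg was 0.99 ± 0.33 and did not pass the test without a tumour block (edgeR adjusted p = 0.0649), but did with tumour as a block (edgeR adjusted p = 0.00984). CD206pos against CD206neg gave 0.82 ± 0.33 (edgeR adjusted p = 0.101, and 0.0218 with the block). Without CD206neg of tumours 6 and 8 the 2 log2 fold changes were 1.15 and 0.98 (edgeR adjusted p = 0.123 and 0.144).

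CAF1 and CAF2 also differ in markers of other cells. Pericyte markers, 6 of 6 in the matrix, summed to 347 to 1966 CPM in CAF1 and 84.5 to 125 CPM in CAF2. Myoepithelial markers, 4 of 4, summed to 84.0 to 4086 CPM in CAF1 and 0.084 to 8.99 CPM in CAF2, and epithelial markers, 6 of 6, to 204 to 1674 CPM in CAF1 and 1.60 to 427 CPM in CAF2. The digestion genes summed to 21283 to 37648 CPM in CAF1 and 20784 to 34894 CPM in CAF2. The part of these cells in any difference between CAF1 and CAF2 was not tested.

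The ferritin subunits, Fth1 (chr19:9980600-9985111, plus strand) and Ftl1 (chr7:45457944-45459886, minus strand), were the most abundant members per kb of transcript in all 6 populations. Together they took 4.19% ± 0.78 of all counts in CD206hi, 3.95% ± 1.256 in CD206pos and 5.02% ± 0.80 in CD206neg, against 0.949% ± 0.376 in endothelial cells, 1.37% ± 0.43 in CAF1 and 1.07% ± 0.26 in CAF2 (SD, n = 5 each). Fth1 had 12777, 20757, 17363, 17188 and 17725 CPM in CD206hi libraries, 11757, 25114, 12338, 16803 and 16157 CPM in CD206pos libraries, and 19789.6, 28995, 19335, 25693 and 24547 CPM in CD206neg libraries. It had 2370.3, 4989, 9118, 2350.2 and 3406 CPM in endothelial libraries, 3776, 6336, 13069, 6577 and 5072 CPM in CAF1 libraries, and 4563, 6918, 5228, 4451 and 6354 CPM in CAF2 libraries. The TAM libraries overlapped the others in 1 place, where CAF1 of tumour 8 exceeded the CD206hi library of tumour 5 and the CD206pos libraries of tumours 5 and 8.

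Ftl1, which speeds the mineral core of ferritin but lacks the ferroxidase site of the heavy subunit, ran between 14841 and 32822 CPM in the 15 TAM libraries, with a median of 24765 CPM. It ran between 3942 and 7160.2 CPM in the 5 endothelial libraries, with a median of 4498 CPM, and between 3319 and 8503 CPM in the 10 CAF libraries, with a median of 6189.9 CPM. The TAM libraries did not overlap the rest. The log2 fold change of TAMs against endothelial cells was 2.96 ± 0.44 for Fth1 (edgeR adjusted p = 8.79e-07) and 3.14 ± 0.44 for Ftl1 (edgeR adjusted p = 4.03e-07). Against CAFs it was 1.99 ± 0.31 for Fth1 (edgeR adjusted p = 1.31e-06) and 2.41 ± 0.31 for Ftl1 (edgeR adjusted p = 6.57e-08).

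Between the TAM populations neither ferritin gene was called. Fth1 averaged 17162 ± 2851 CPM in CD206hi and 16434 ± 5343 CPM in CD206pos, against 23672 ± 4095 CPM in CD206neg (n = 5 each), and the log2 fold changes were -0.68 ± 0.45 for CD206hi and -0.73 ± 0.45 for CD206pos against CD206neg (edgeR adjusted p = 0.439 and 0.300). These were -0.60 and -0.65 without CD206neg of tumours 6 and 8. For Ftl1 they were -0.29 ± 0.48 and -0.40 ± 0.48 (edgeR adjusted p = 0.813 and 0.618), and -0.25 and -0.37 without those 2 libraries. Both genes were lower in CD206pos than in CD206neg in 5 of 5 tumours. CAF1 and CAF2 did not differ by the test either, at 0.44 ± 0.40 for Fth1 and 0.55 ± 0.42 for Ftl1 on the log2 scale (adjusted p of 0.514 and 0.429 in edgeR).

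Endothelial cells were lower than CAFs in Fth1 (log2 fold change -0.97 ± 0.40, edgeR adjusted p = 0.0468, lower in 5 of 5 tumours), on a call that most single libraries could end. It was lost without any 1 of 17 libraries (CD206hi of tumours 6, 8 and 10, CD206pos of tumour 10, CD206neg of tumours 6, 10 and 11, endothelial of tumours 5, 10 and 11, CAF1 of tumours 6, 8, 10 and 11, CAF2 of tumours 6, 8 and 11), with adjusted p between 0.0503 and 0.134 in edgeR. Without the endothelial library of tumour 8 the value for Fth1 was -1.33 (edgeR adjusted p = 0.0133). Ftl1 gave -0.72 ± 0.39 (edgeR adjusted p = 0.137, and 0.0332 with tumour as a block). Hmox1 gave -0.89 ± 0.38 in the same comparison (edgeR adjusted p = 0.0545, and 0.0222 with the block). Beside these, erythroid markers summed to 31.2 to 433 CPM in endothelial cells, against 1.91 to 147 CPM in CAF1 and 0.835 to 114 CPM in CAF2, and epithelial markers to 197 to 2367 CPM in endothelial cells. Their part was not tested. Processed copies add a limit to both genes: 1 pseudogene is at least 90% identical to Fth1 over at least 50% of its coding sequence, and 7 other genes, 6 of them annotated as pseudogenes, match Ftl1 to that extent, the closest at 99.6% identity. None of the 8 has a row in the matrix, and no source used here says how the counting placed shared reads.

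Tfrc (chr16:32608896-32632794, plus strand), the transferrin receptor gene, whose 3′ UTR held the 4 hairpin matches, was among the least abundant. It had 44.1, 27.7, 10.2, 11.9 and 29.9 CPM in CD206hi libraries, 30.3, 12.9, 23.7, 11.6 and 25.1 CPM in CD206pos libraries, and 12.4, 1.06, 5.73, 5.005 and 2.51 CPM in CD206neg libraries. It had 17.6, 11.98, 16.9, 9.58 and 12.1 CPM in endothelial libraries, 15.5, 8.95, 22.5, 3.49 and 2.08 CPM in CAF1 libraries, and 3.50, 2.69, 1.95, 4.35 and 2.97 CPM in CAF2 libraries. The order of the means was CD206hi, CD206pos, endothelial, CAF1, CD206neg and CAF2, and every neighbour in it differed by less than the larger SD. For the other 8 genes the 3 TAM populations held the first 3 places, and for Tfrc they did not.

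Tfrc was higher in CD206hi than in CD206neg (log2 fold change 2.23 ± 0.45, edgeR adjusted p = 0.00294) and in CD206pos than in CD206neg (1.94 ± 0.44, edgeR adjusted p = 0.00679), in 5 of 5 tumours each. The CD206neg library of tumour 5, the highest of its group, overlapped the lowest libraries of both other groups. Without CD206neg of tumours 6 and 8, of which tumour 6 was the lowest TAM library, the log2 fold changes were 1.92 in CD206hi (edgeR adjusted p = 0.0356) and 1.64 in CD206pos (edgeR adjusted p = 0.0529). The CD206pos call was also lost without tumour 11 (edgeR adjusted p = 0.05004). TAMs together were higher than CAFs (1.64 ± 0.31, edgeR adjusted p = 2.55e-05), and the difference from endothelial cells did not pass the test (0.76 ± 0.38, edgeR adjusted p = 0.0821).

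CAF1 was higher than CAF2 in Tfrc, with a log2 fold change of 1.75 ± 0.47 (edgeR adjusted p = 0.0208) and a higher value in 4 of 5 tumours. The CAF1 libraries of tumours 10 and 11 lay within the CAF2 range. The call was lost with tumour as a block (edgeR adjusted p = 0.101), without CAF1 of tumour 8 (0.0631) or CAF2 of tumour 8 (0.0517), and without tumours 5, 6 or 8 (0.0710 to 0.133). Without tumour 8 the log2 fold change was 1.12. Endothelial cells against CAFs gave 0.88 ± 0.38 (edgeR adjusted p = 0.0582), with a higher value in 5 of 5 tumours.

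Slc11a1 (chr1:74375014-74386057, plus strand), which encodes the NRAMP1 transporter of phagosomes and lysosomes, parted the lineages most widely of the 9 genes. It ran between 121 and 341 CPM in the 15 TAM libraries, with a median of 219.8 CPM, between 0.356 and 1.40 CPM in the 5 endothelial libraries, and between 0 and 5.44 CPM in the 10 CAF libraries. The log2 fold change of TAMs was 8.81 ± 0.48 against endothelial cells (edgeR adjusted p = 7.21e-16) and 7.62 ± 0.32 against CAFs (edgeR adjusted p = 1.35e-18). The macrophage markers, 8 of 8 in the matrix, summed to 13096 to 25929.7 CPM in TAMs, 13.4 to 47.8 CPM in endothelial cells, 17.7 to 35.02 CPM in CAF1 and 11.6 to 18.9 CPM in CAF2. Their part in the low values outside the TAMs was not tested.

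Among the TAMs, the mean of Slc11a1 was highest in CD206neg, where that of Hmox1 was lowest. It had 248, 172, 219.8, 235 and 121 CPM in CD206hi libraries, 254, 158, 219, 161 and 178 CPM in CD206pos libraries, and 341, 218, 245, 259 and 245 CPM in CD206neg libraries, and the groups overlapped. It was lower in CD206pos than in CD206neg (log2 fold change -0.63 ± 0.19, edgeR adjusted p = 0.0322, lower in 5 of 5 tumours). In CD206hi the log2 fold change was -0.60 ± 0.19 (edgeR adjusted p = 0.0541, and 0.0324 with tumour as a block, lower in 4 of 5 tumours). Without CD206neg of tumours 6 and 8 the log2 fold changes were -0.70 in CD206pos and -0.66 in CD206hi (edgeR adjusted p = 0.0648 and 0.112). The CD206pos call was also lost without CD206neg of tumours 6, 10 or 11 or CD206pos of tumours 8 or 10 (edgeR adjusted p = 0.0547 to 0.0767) and without tumours 6, 10 or 11 (0.0894 to 0.143).

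Outside the TAMs the highest values of Slc11a1 were in CAF1, with 5.44, 3.38, 2.95, 2.14 and 0.979 CPM, against 0, 0.818, 1.298, 0.0836 and 1.053 CPM in CAF2. The log2 fold change was 2.13 ± 0.74, which did not pass the test (edgeR adjusted p = 0.0634), though higher in CAF1 in 5 of 5 tumours. Endothelial cells were lower than both CAF populations joined (-1.19 ± 0.42, edgeR adjusted p = 0.0220, lower in 4 of 5 tumours), on counts of at most 15 per endothelial library. The endothelial mean, 0.787 CPM, was below that of CAF1, 2.98 CPM, but not below that of CAF2, 0.651 CPM, with overlap. The call against the joined CAFs was lost without the endothelial libraries of tumours 6, 10 or 11 or CAF2 of tumours 8 or 11 (edgeR adjusted p = 0.0517 to 0.0677) and without tumours 6, 8 or 11 (0.0510 to 0.139).

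Slc11a2 (chr15:100387898-100424209, minus strand), which encodes DMT1, the transporter that carries iron out of endosomes in most cells, varied least between populations. Its highest mean CPM was 2.73-fold above the lowest. It averaged 43.7 ± 21.9 CPM in CD206hi, 54.5 ± 18.3 in CD206pos, 35.1 ± 11.6 in CD206neg, 21.4 ± 4.81 in endothelial cells, 21.9 ± 9.27 in CAF1 and 19.9 ± 5.69 CPM in CAF2 (SD, n = 5 each). TAMs were higher than endothelial cells (log2 fold change 1.80 ± 0.27, edgeR adjusted p = 9.02e-07) and than CAFs (1.41 ± 0.20, edgeR adjusted p = 2.34e-07). These fold changes use TMM scaling and can exceed the ratio of mean CPM. Over the alternatives tried they ran between 1.03 and 2.01 against endothelial cells and between 1.06 and 1.49 against CAFs. Nothing was called within the lineages, where CD206hi and CD206pos gave 0.12 ± 0.31 and 0.48 ± 0.31 against CD206neg (edgeR adjusted p = 0.888 and 0.327), and 0.12 and 0.48 without CD206neg of tumours 6 and 8. In the order of the means only the step from CD206neg to CAF1 exceeded the larger SD, and the libraries of these populations overlapped. Slc11a2 overlaps Gm5475 on the opposite strand, a gene with no row in the matrix, and no source used here gives the strand setting of the counting.

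Slc40a1 (chr1:45908070-45926532, minus strand), which encodes ferroportin, the only known iron exporter of animal cells, varied widely within populations. It had 79.9, 27.7, 30.5, 41.0 and 35.3 CPM in CD206hi libraries, 57.7, 8.74, 13.0, 0.121 and 15.3 CPM in CD206pos libraries, and 30.5, 9.01, 5.94, 29.5 and 36.5 CPM in CD206neg libraries. It had 4.98, 9.61, 3.17, 5.66 and 6.28 CPM in endothelial libraries, 15.4, 11.2, 6.45, 15.1 and 37.7 CPM in CAF1 libraries, and 11.4, 3.62, 6.21, 1.67 and 3.83 CPM in CAF2 libraries. The CD206pos library of tumour 10 held 1 count, under the floor of 3 counts, while the CD206hi and CD206neg libraries of that tumour were the second and the third highest of their groups. The 15 TAM libraries spanned the whole range of the other populations.

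TAMs were higher than endothelial cells in Slc40a1 (log2 fold change 2.86 ± 0.68, edgeR adjusted p = 0.000579) and than CAFs (1.68 ± 0.47, edgeR adjusted p = 0.00243), in 5 of 5 tumours each when the populations of a tumour are averaged. Within the TAMs no comparison passed the test. CD206hi exceeded CD206pos in 5 of 5 tumours, with a log2 fold change of 1.21 ± 0.70 (edgeR adjusted p = 0.790), and exceeded CD206neg in 5 of 5, with 0.70 ± 0.69 (edgeR adjusted p = 0.643). Without CD206neg of tumours 6 and 8 the CD206hi value against CD206neg was 0.17 (edgeR adjusted p = 0.953). Differences of this size were not detectable at these SEs.

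CAF1 was higher than CAF2 in Slc40a1 (log2 fold change 2.02 ± 0.60, edgeR adjusted p = 0.0328, higher in 5 of 5 tumours), with overlap between the groups. With tumour as a block the adjusted p was 0.0855 in edgeR. Without CAF1 of tumour 11 the log2 fold change was 1.18 and the call was lost (edgeR adjusted p = 0.0941). It was also lost without CAF2 of tumours 6, 8, 10 or 11 (0.0582 to 0.0789) and without tumours 6, 10 or 11 (0.0788 to 0.183), with a log2 fold change of 1.10 without tumour 11. Hmox1 gave a log2 fold change of 0.71 ± 0.24 in CAF1 against CAF2 (edgeR adjusted p = 0.0525), higher in 5 of 5 tumours, and Blvra gave -0.55 ± 0.20 (edgeR adjusted p = 0.0682, and 0.0422 with the block), lower in 5 of 5.

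**Figure D2:**
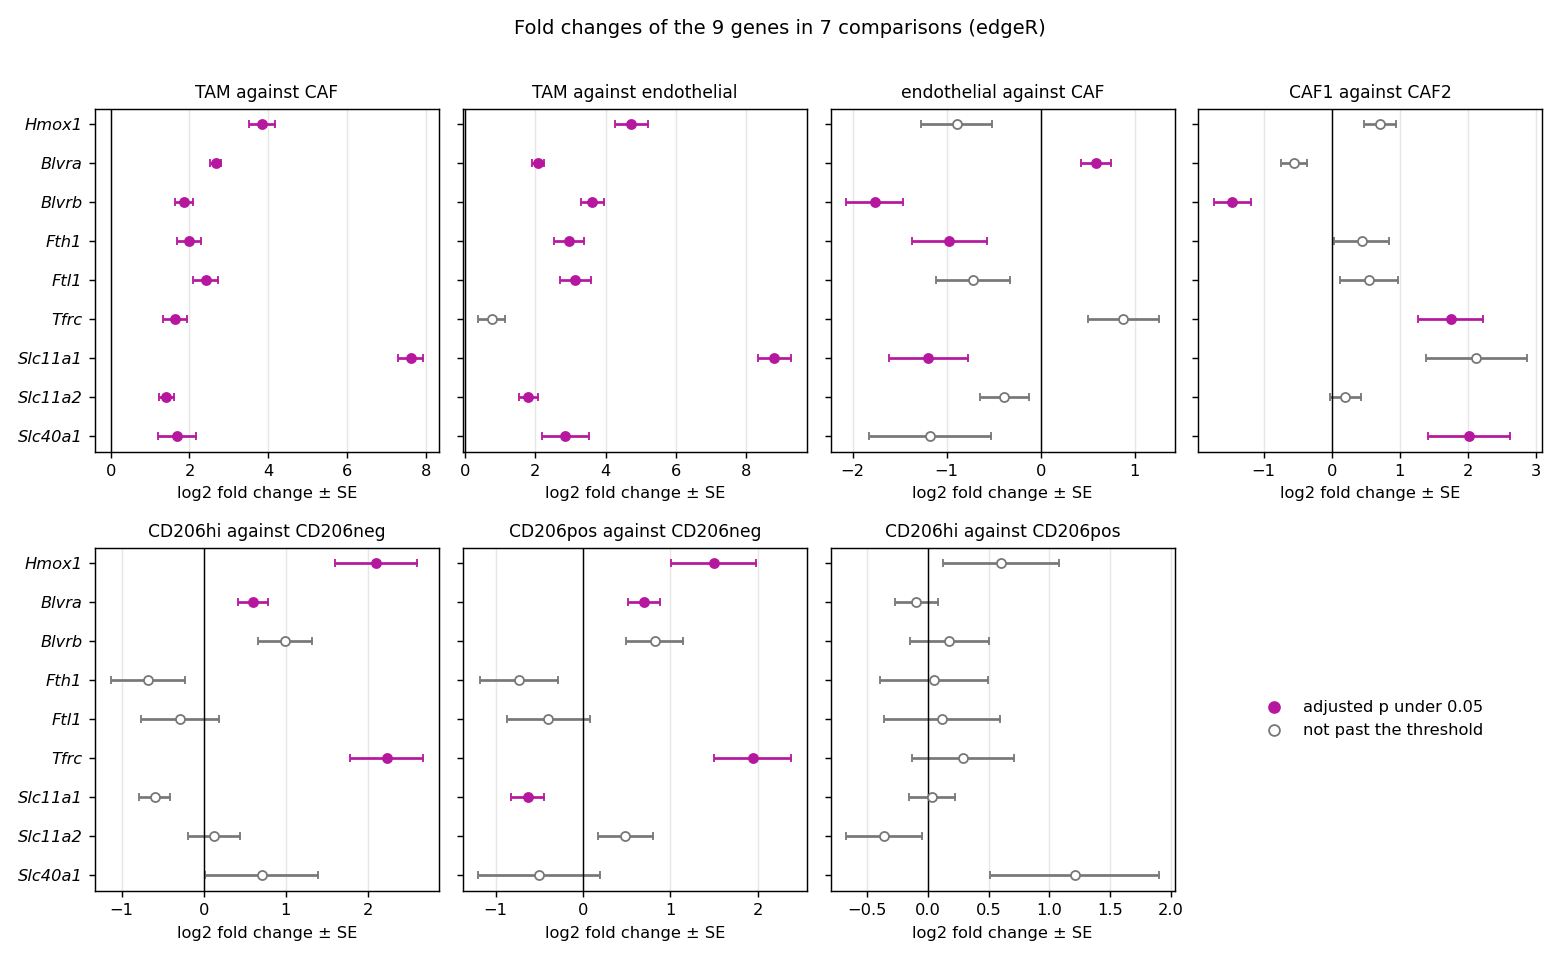
Each panel is 1 comparison, with the log2 fold change (first-named population over the other) and its SE on the horizontal axis and the 9 genes down the vertical axis, and filled points mark an edgeR adjusted p under 0.05. The points of TAMs against CAFs are all filled and all right of 0, those of CD206hi against CD206pos are all open, and the horizontal scales differ between panels.

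Between CD206hi and CD206pos the 9 log2 fold changes lay between -0.36 and 1.21. None had an unadjusted p under 0.05, and DESeq2 called 0 of 9. Over all genes of this comparison edgeR called 21, DESeq2 called 85, and 801 had an unadjusted p under 0.05 in edgeR. In a simulation of this comparison edgeR recovered 33% of genes changed 2-fold and 80% of genes changed 4-fold. The simulation changed a small random set of genes and had no link between libraries of the same tumour. Under those settings a 2-fold difference would often have been missed.

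Several genes kept the same tumour high or low across populations. Slc11a2 was highest in tumour 5 in 5 of 6 populations and Tfrc in 4 of 6, including all 3 TAM populations. Slc11a1 was highest in tumour 5 in 4 of 6. Ftl1 was lowest in tumour 5 in 5 of 6 populations and Fth1 in 3 of 6, and both were highest in tumour 6 in 4 of 6. Blvra was highest in tumour 8 in 5 of 6 and Hmox1 lowest in tumour 10 in 4 of 6. These are single animals, so the values describe the 5 mice and carry no test.

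Levels of different genes were set side by side as CPM per kb of the principal transcript. In CD206hi the order was Ftl1 (25585), Fth1 (18474), Hmox1 (1053), Blvrb (192), Blvra (114), Slc11a1 (86.1), Slc11a2 (14.5), Slc40a1 (12.7) and Tfrc (5.06 CPM per kb). In CAF2 it was Fth1 (5924), Ftl1 (5357), Blvrb (86.7), Hmox1 (39.0), Blvra (24.1), Slc11a2 (6.59), Slc40a1 (1.59), Tfrc (0.632) and Slc11a1 (0.281 CPM per kb). The reductases stood above Slc11a1 in both, but in CD206neg Slc11a1, at 113 CPM per kb, stood above Blvrb (88.7) and Blvra (68.2 CPM per kb). Slc11a1 was last in endothelial cells and both CAF populations.

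Ratios within a library, per kb, set the transcripts of paired functions against each other. The ratio of Fth1 to Ftl1 had a geometric mean of 0.728 in CD206hi, 0.747 in CD206pos and 0.929 in CD206neg, against 0.821 in endothelial cells, 1.01 in CAF1 and 1.13 in CAF2. In tumour 8 it was highest of its group in endothelial cells (1.70) and in CAF1 (2.001). The ratio of Blvrb to Blvra was 1.65 in CD206hi, 1.37 in CD206pos and 1.34 in CD206neg, against 0.519 in endothelial cells, 1.88 in CAF1 and 3.59 in CAF2. All 5 endothelial libraries were below 1, at most 0.847, and all CAF2 libraries were at 2.93 or above. The ratio of Slc40a1 to Tfrc, an exporter against an uptake receptor, was 2.69 in CD206hi, 0.534 in CD206pos and 6.42 in CD206neg, against 0.613 in endothelial cells, 2.81 in CAF1 and 2.13 in CAF2, and its extremes were 0.0226 in CD206pos of tumour 10 and 25.6 in CAF1 of tumour 11. These ratios are descriptions of transcript counts, without a test.

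**Figure D3:**
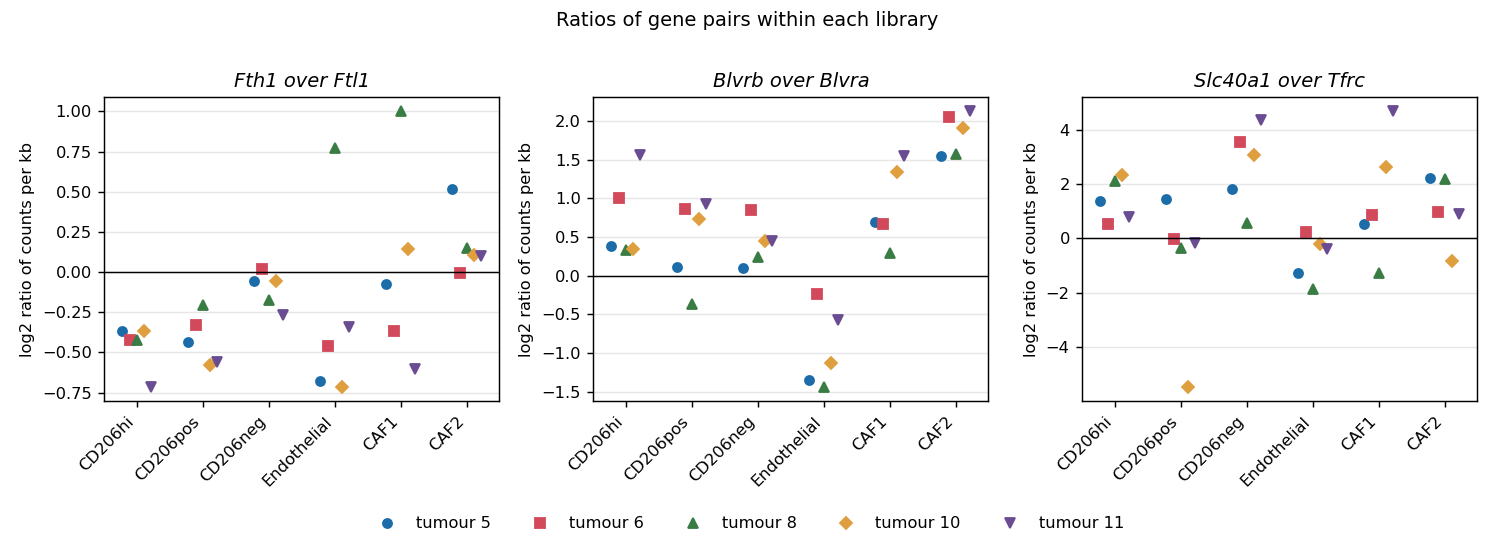
The panels show log2 of the ratio of 2 genes in counts per kb, with 0.5 added to each count, for every library in the 6 populations, each symbol being 1 tumour. Blvrb over Blvra lies below 0 in all endothelial libraries and above 1.5 in all CAF2 libraries, and Slc40a1 over Tfrc has 1 low point in CD206pos, tumour 10.

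The genes with patterns most like each member were found as those with the smallest root mean square difference of log2(TMM-scaled CPM + 1), each gene centred on its own mean, over the 30 libraries and among 8340 genes of at least 10 CPM on average. Fth1 and Ftl1 differed from each other by 0.408, the closest pair of the 9, and both had Cst3, the cysteine protease inhibitor cystatin C, as their nearest other gene (0.524 for Fth1 and 0.428 for Ftl1), followed by Renbp and Uap1l1 for Fth1 and by Gpx1 and Renbp for Ftl1. Slc11a1 had Fcgr1 (0.515) and Selplg (0.530) among its 3 nearest genes. Hmox1 was nearest to Pstpip2 (0.681), Sema4a (0.775) and Cd200r1 (0.776). Blvra was nearest to Amdhd2 (0.361), Dnase1l1 and Atp2b1, Blvrb to Rab3il1 (0.432), Oas1a and Slfn8, Tfrc to Fchsd2 (0.618), Rnf141 and Bid, and Slc11a2 to Mdm2 (0.344), Por and Fam214b. Slc40a1 had no close companion: its nearest genes, Atp6ap2, Man1c1 and Rin2, were at 1.06, 1.06 and 1.07, against a spread of Slc40a1 about its own mean of 1.56. The points share libraries and the split between lineages, and a small difference says nothing of shared control.

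A list of 60 other haem and iron genes, 55 of them in the matrix, set the 9 in context. In TAMs against CAFs 19 of 55 were higher and 24 lower, with a median log2 fold change of -0.21, against -0.10 for all genes. Against endothelial cells 23 were higher and 15 lower, with a median of 0.15, against -0.17 for all genes. Over all genes 30.8% were higher and 37.3% lower against CAFs, and 24.7% and 36.5% against endothelial cells. The list shares were 34.5% higher and 43.6% lower against CAFs, near those of all genes, and 41.8% and 27.3% against endothelial cells. Among the transcription factors of these genes, counted with Keap1, a regulator of Nfe2l2, 5 of 6 were higher in TAMs than in CAFs. Nfe2l2, the stress-response activator of Hmox1 and ferritin genes, had 631 ± 149 CPM in TAMs (n = 15) and 167 ± 43.2 CPM in CAFs (n = 10). Its log2 fold change was 2.26 ± 0.15 (edgeR adjusted p = 3.19e-14). Bach1, a repressor of Hmox1 that haem inactivates, had 122 ± 71.9 CPM in TAMs and 46.5 ± 19.7 CPM in CAFs (1.62 ± 0.26, edgeR adjusted p = 3.33e-06). Keap1, which holds Nfe2l2 down, was lower (-0.73 ± 0.12, edgeR adjusted p = 2.80e-06). Nfe2l2, Bach1, Keap1, Ncoa4, Aco1 and Ireb2 were named after their values were seen.

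Spic, a factor needed in the mouse for splenic macrophages that recycle red cells, had 11.2 ± 4.57 CPM in TAMs and 0 counts in every endothelial and CAF library, at least 33.0-fold and 36.2-fold higher against a floor of 3 counts per library. Cd163, the scavenger receptor for haemoglobin bound to haptoglobin, had 113 ± 143 CPM in TAMs, 0.197 ± 0.324 CPM in endothelial cells and 0.272 ± 0.546 CPM in CAFs. On the log2 scale these differences were 7.78 ± 0.89 and 7.60 ± 0.67 (edgeR adjusted p = 8.70e-09 and 2.72e-11). Hfe, a membrane partner of the transferrin receptors, had 125 ± 53.1 CPM in TAMs and 11.8 ± 5.40 CPM in CAFs (log2 fold change 3.66 ± 0.20, edgeR adjusted p = 2.41e-16). Ncoa4, which carries ferritin to the lysosome, was higher in TAMs than in CAFs (1.56 ± 0.18, edgeR adjusted p = 4.11e-09). Aco1 and Ireb2, which encode the iron regulatory proteins that bind the hairpins above, were not called between TAMs and CAFs (0.20 ± 0.17 and -0.21 ± 0.14, edgeR adjusted p = 0.320 and 0.193).

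All 5 reductase genes of the list (Steap1, Steap2, Steap3, Steap4 and Cybrd1) were lower in TAMs than in CAFs, as were Tfr2 and both ferroxidase genes, Cp and Heph, while Trf and the lysosomal iron channel gene Mcoln1 were higher. These genes were grouped by function after their values were seen, and 37.3% of all genes were lower in this comparison. No TAM library held more than 2 counts of Steap1, Steap2, Heph or Bmp6, a ligand that raises hepcidin, whereas CAFs had 8.19 ± 5.25 CPM of Steap1, 12.6 ± 4.45 CPM of Steap2, 6.70 ± 5.52 CPM of Heph and 26.6 ± 28.3 CPM of Bmp6. Lrp1, the receptor for haem bound to haemopexin, had 254 ± 124 CPM in TAMs, 17.1 ± 17.2 CPM in endothelial cells and 803 ± 222 CPM in CAFs. TAMs were higher than endothelial cells (log2 fold change 4.62 ± 0.44, edgeR adjusted p = 1.76e-10) and lower than CAFs (-1.41 ± 0.25, edgeR adjusted p = 1.22e-05). Abcg2, a transporter that exports porphyrins, was lower in TAMs (7.74 ± 3.82 CPM) than in endothelial cells (179.8 ± 36.0 CPM; -3.85 ± 0.19, edgeR adjusted p = 7.74e-17).

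Endothelial cells had 9 of 55 list genes higher (16.4%) and 17 lower (30.9%) than CAFs, against 23% and 22.1% of all genes. Abcg2 (log2 fold change 2.35 ± 0.21, edgeR adjusted p = 1.70e-10), the transferrin gene Trf (2.54 ± 0.67, edgeR adjusted p = 0.00256) and Alad of haem synthesis (1.23 ± 0.19, edgeR adjusted p = 5.31e-06) were the 3 that stood highest above CAFs. Trf ran between 234 and 10500.2 CPM in the endothelial libraries, between 195 and 6869 CPM in CAF1 and between 18.0 and 231 CPM in CAF2, beside the epithelial markers given above for these cells, and their part was not tested. Lrp1 (-6.02 ± 0.48, edgeR adjusted p = 1.74e-11), Steap3 (-5.17 ± 0.43, edgeR adjusted p = 6.02e-11) and Steap2 (-4.79 ± 0.66, edgeR adjusted p = 6.76e-07) were the 3 that stood lowest. CAF1 had 5 of 52 higher and 5 lower than CAF2, 9.62% each, against 10.9% and 8.59% of all genes. Trf (4.68 ± 1.08, edgeR adjusted p = 0.00856), the siderophore-binding Lcn2 (3.88 ± 0.95, edgeR adjusted p = 0.0121) and Alad (1.49 ± 0.27, edgeR adjusted p = 0.00212) were higher, beside the epithelial and myoepithelial markers given above. Bmp6 (-3.93 ± 0.35, edgeR adjusted p = 1.90e-05), Steap1 (-1.33 ± 0.43, edgeR adjusted p = 0.0470) and Alas1, which starts haem synthesis (-0.92 ± 0.20, edgeR adjusted p = 0.00521), were lower.

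Among the TAMs, 7 of 48 list genes were higher in CD206hi than in CD206neg and none lower, and 7 of 48 were higher in CD206pos than in CD206neg and none lower. Of all genes 6.14% were higher and 3.9% lower for CD206hi, and 8.85% and 5.85% for CD206pos. With tumour as a block the list counts became 9 higher and 3 lower, and 12 higher and 5 lower. The shares of all genes became 8.89% higher and 7.32% lower for CD206hi, and 13.4% and 12% for CD206pos. When CD206neg of tumours 6 and 8 was left out, 3 and 5 of the 48 were higher and none lower. Of all genes 2.91% and 4.84% were then higher, and 1.84% and 3.27% lower. Cd163 had 152 ± 115 CPM in CD206hi and 187 ± 184 CPM in CD206pos, against 0.964 ± 0.892 CPM in CD206neg, or 7.09 ± 0.79 and 7.33 ± 0.80 on the log2 scale (edgeR adjusted p = 2.65e-05 and 2.73e-05). Steap4 had 18.0 ± 14.1 CPM in CD206hi and 26.9 ± 19.1 CPM in CD206pos, against 0.572 ± 0.510 CPM in CD206neg (4.97 ± 0.86 and 5.46 ± 0.86, edgeR adjusted p = 0.000905 and 0.000385). Cp, a ferroxidase that works with ferroportin, was higher in CD206hi (38.3 ± 11.1 CPM) than in CD206neg (9.69 ± 5.60 CPM; 1.72 ± 0.47, edgeR adjusted p = 0.0231), and the endosomal reductase gene Steap3 was higher in CD206pos (32.4 ± 6.33 CPM) than in CD206neg (10.1 ± 5.05 CPM; 1.62 ± 0.28, edgeR adjusted p = 0.000785). Cp in CD206hi was 1.59 and lost its call without CD206neg of tumours 6 and 8 (edgeR adjusted p = 0.0654), while Cd163 and Steap4 in both comparisons and Steap3 in CD206pos kept theirs (edgeR adjusted p of 0.0174 or less). These 2 comparisons share the CD206neg libraries, and none of the 48 genes was called between CD206hi and CD206pos.

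**Figure D4:**
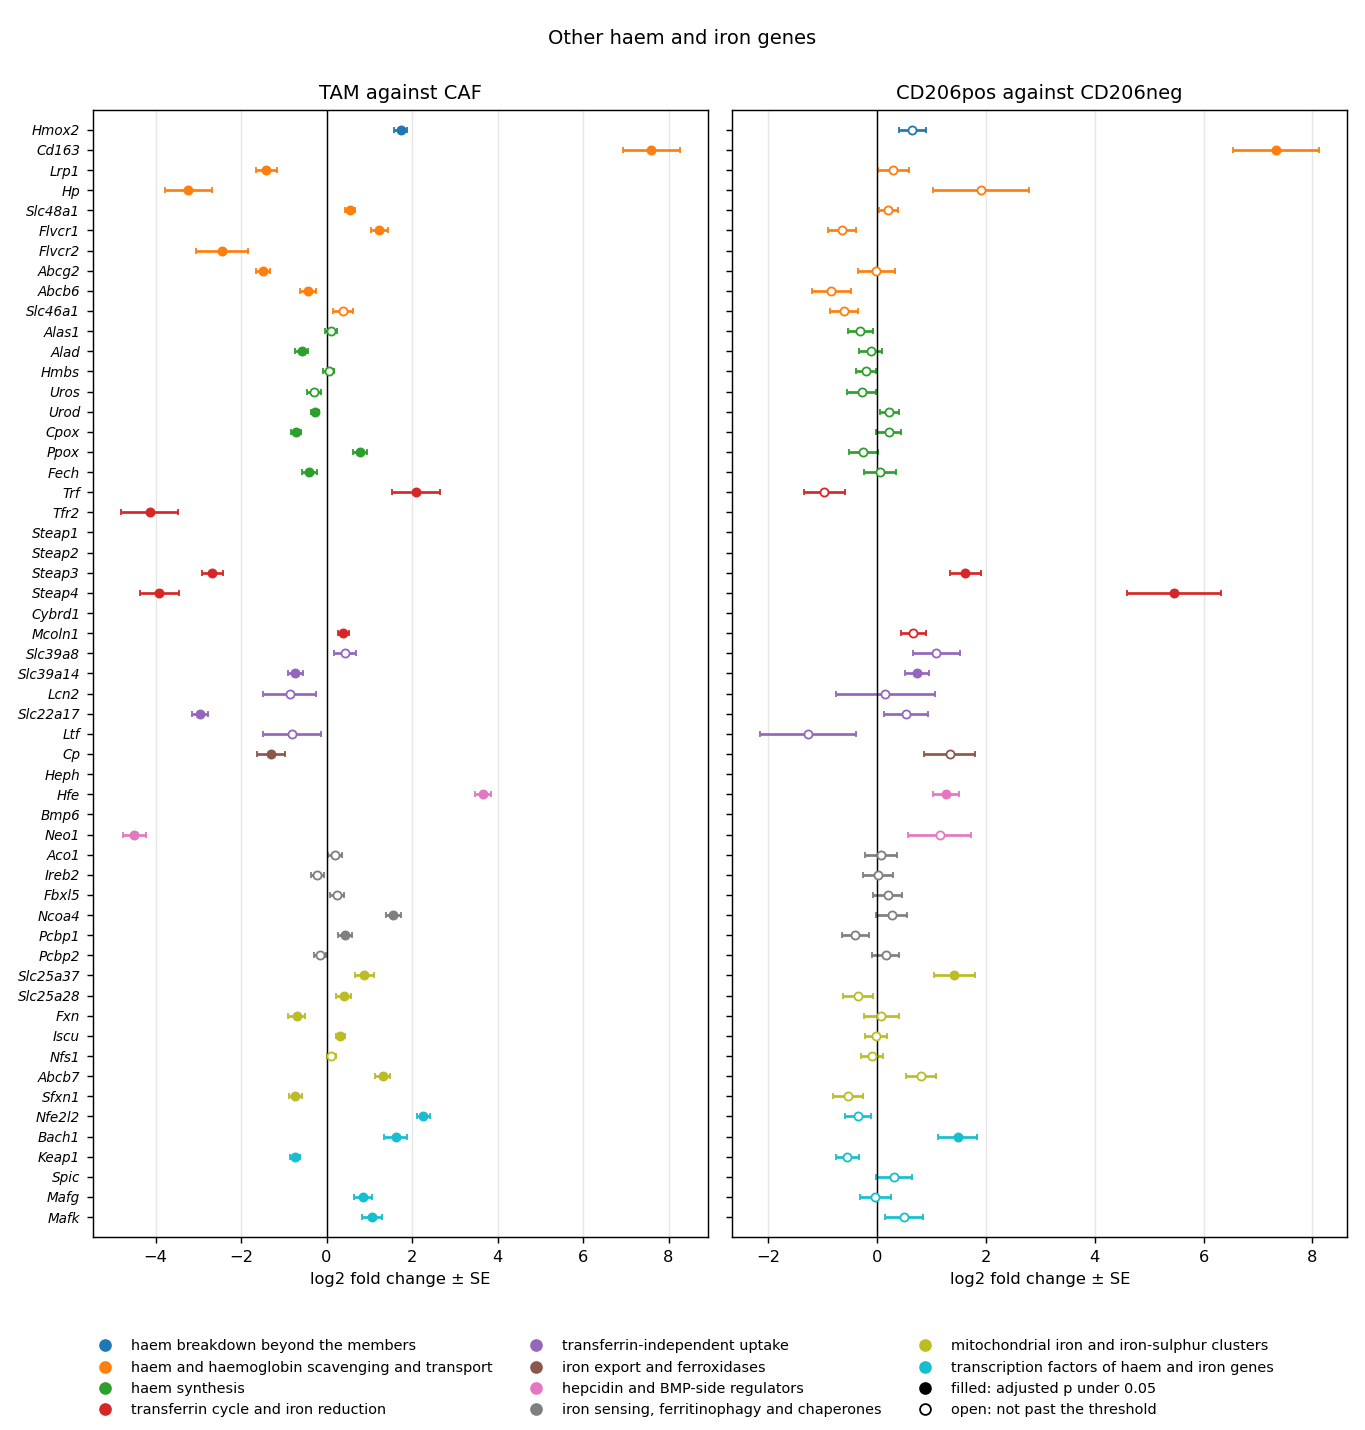
The panels give log2 fold changes with SE of the other haem and iron genes in TAMs against CAFs and in CD206pos against CD206neg, coloured by list, with filled points for an edgeR adjusted p under 0.05. Genes in which no library of 1 side exceeds 3 counts have no point, which leaves 49 of 55 in the left panel, with points on both sides of 0, and 48 in the right panel, where all 7 filled points are right of 0. In the comparison of the right panel 8.85% of all genes were higher and 5.85% lower.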

How the data were processed

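RNA of 6 sorted populations of 5 tumours was measured in 30 libraries made with SMARTseq v4 and Ovation Ultralow kits, per the labels' protocols. Trimmomatic 0.36, HISAT2 2.0.4, SAMtools 1.3.1, DESeq2 1.26 and mm10 stand in the submitters' processing notes, and no source used here names the counting tool, its strand setting or its annotation. The authors deposited counts per Entrez gene and a normalised signal, which equals the counts divided by 1 factor per library (largest relative spread 1.27e-09). Every gene in the matrix has at least 72 counts, and the 14 of 14118 genes without a symbol were kept.

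The members and lists were chosen with earlier results of these data known. In R 4.3.3, edgeR 4.0.16 tested counts after filterByExpr and TMM, in fits of 30 libraries (13610 genes), 10 CAF libraries (12149) and 15 TAM libraries (11052). Joined sides are means on the log2 scale, and the SE is the log2 fold change over the square root of F. CPM use library totals, while fold changes use TMM factors of 0.547 to 1.67, so the 2 can differ: the CPM means of Slc11a2 in endothelial cells and CAFs are 21.4 and 20.9, and its log2 fold change is -0.39. The 6 libraries of a tumour come from 1 mouse, which pairs them by number (correlation of deviations from group means 0.0205 to 0.381 for CAFs and 0.111 to 0.648 for TAMs). Because sides that join populations hold several libraries of 1 mouse, their p-values without a block treat these as separate samples.

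From the list, the up to 3 largest rises and falls per comparison were named among called genes that averaged 5 CPM or more on their higher side, and genes with no library above 3 counts on a side get no fitted fold change. The alternatives tried were DESeq2 1.42.0, a tumour block, library totals or RLE factors in place of TMM, other filters, limma 3.58.1 on the deposited signal with a pseudocount of 1, other libraries in the fit, and libraries or tumours left out. On simulated data edgeR recovered 25% (CD206pos against CD206neg) to 68% (TAMs against CAFs) of 2-fold changes. These data changed a small random set of genes and drew every library independently, so the rates are averages over genes and not rates for the members. One gene that the likeness measure named is not reported here.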

Additional observations from a re-analysis of the deposited data

Results flagged for a closer look

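In 5 of the 54 groups of 5 libraries (9 genes in 6 populations), the highest library stood so far from the next that the gap exceeded 0.71 of the whole range, the 95% limit of Dixon's test. For normally distributed values chance alone flags about 5% of groups. The test was run on CPM without a log scale, where the chance rate can differ, and all 5 flags are at the high end. Blvrb in CAF1 had 50.5 CPM in tumour 10, against 23.5 to 26.0 CPM in the other 4 libraries. Slc11a2 in CD206neg had 55.2 CPM in tumour 5, against 25.9 to 33.9 CPM. Slc40a1 had 79.9 CPM in CD206hi of tumour 5, against 27.7 to 41.0 CPM, 57.7 CPM in CD206pos of tumour 5, against 0.121 to 15.3 CPM, and 37.7 CPM in CAF1 of tumour 11, against 6.45 to 15.4 CPM.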

How the results depend on the processing

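Of 63 results (9 genes in 7 comparisons), 31 were called, and 20 of these kept their call in every alternative tried: all 17 of TAMs against CAFs and against endothelial cells, Blvrb in both other comparisons in which it was called, and Tfrc in CD206hi against CD206neg. The number of members called kept its 9 and 8 in the first 2 comparisons and its 0 between CD206hi and CD206pos throughout. Between CAF1 and CAF2 it was 3, but 5 in DESeq2 and 5 with limma on the deposited signal, 2 (none higher, 2 lower) with tumour as a replicate block, and 1 to 4 with libraries or tumours left out. In CD206hi against CD206neg it was 3, but 5 with tumour as a replicate block, 5 in DESeq2 and 1 without CD206neg of tumours 6 and 8, and 1 to 5 with libraries or tumours left out. In CD206pos against CD206neg it was 4, but 1 without CD206neg of tumours 6 and 8, and 0 to 4 with libraries or tumours left out. Between endothelial cells and CAFs it was 4, and 2 to 6 with libraries or tumours left out. In the simulation, 17.3% of DESeq2 calls were false for CAF1 against CAF2, against 3.85% of edgeR calls. For CD206hi against CD206neg these shares were 14.8% and 4.17%. Why the numbers of members called differ was not tested.

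The log2 fold changes that turned were all of results without a call. Slc11a2 in endothelial cells against CAFs was 0.03444 with library totals. With libraries or tumours left out, Slc11a2 in CD206hi against CD206neg lay between -0.041 and 0.28, and in CD206hi against CD206pos Slc11a1 lay between -0.087 and 0.15, Blvrb between -0.043 and 0.34, Fth1 between -0.12 and 0.36, Ftl1 between -0.15 and 0.37 and Tfrc between -0.0036 and 0.50. Library totals in place of TMM ended the calls of Fth1 (adjusted p = 0.174) and Slc11a1 (0.164) in endothelial cells against CAFs, of Blvra in CD206hi (0.152) and CD206pos (0.0669), and of Slc11a1 in CD206pos (0.383), all in edgeR. They made calls of Tfrc in endothelial cells against CAFs (0.0183) and of Blvrb in CD206hi (0.0153) and CD206pos (0.0364) against CD206neg. They moved the median log2 fold change of all genes to -0.41 for TAMs against CAFs (TMM -0.10), -0.89 against endothelial cells (-0.17), 0.46 for endothelial cells against CAFs (0.04), 0.16 for CD206hi (0.02) and 0.19 for CD206pos against CD206neg (0.02). The share of higher among all called genes became 31.1% (TMM 45.2%), 17.1% (40.3%), 73.5% (51.0%), 78.7% (61.2%) and 83.3% (60.2%) in the same order. The number of genes called over the whole table moved most within the TAMs. It was 1110 for CD206hi against CD206neg (block 1791, library totals 729, without CD206neg of tumours 6 and 8 545), 1625 for CD206pos against CD206neg (2800.0, 920.0 and 930.0) and 21 for CD206hi against CD206pos (block 97, DESeq2 85, all libraries in the fit 36, 5 without CD206pos of tumour 10, 48 without CD206pos of tumour 8, and 0 without tumour 6, 10 or 11, where 437 to 723 had an unadjusted p under 0.05). Of 54 mean levels 10 moved by more than 1 SD under TMM scaling. Values near 3 counts, such as Slc11a1 outside the TAMs, are limited by depth.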
